A study of Rattus norvegicus with 12 samples.

Results

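Collagens, laminins and integrins are described here, together with the adhesive glycoproteins fibronectin (Fn1), tenascin-C (Tnc) and the nidogens (Nid1 and Nid2), as 1 family of extracellular matrix genes and their receptors. Members were chosen by symbol alone: a collagen chain (Col, a number, the letter a and a number), a laminin chain (Lama, Lamb or Lamc and a number), any symbol that begins with Itga or Itgb, and the glycoproteins just named. The rule found 68 of the 9721 lines of the expression table, or 66 distinct symbols, because Nid2 stands on 3 lines. There were 47 matrix lines (32 collagen, 9 laminin and 6 glycoprotein lines), 19 integrin receptor chains and 2 genes that share the prefix but encode no receptor chain, Itgb3bp, which encodes a centromere protein that binds an integrin tail, and Itgbl1, which encodes a secreted protein with integrin-like repeats. Of these, 65 lines had enough counts to be tested, and Col9a1, Col6a6 and Itgad did not.

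Primary cultures labelled as astrocytes, from midbrains of newborn wild-type SD rats and grown in DMEM with serum, gave the RNA. The groups were 10 µM of the compound PT109B for 1.5, 3 or 6 h, and a control group at 0 h, with 3 libraries each. The labels do not say whether the control dishes received the solvent, nor whether each library had its own culture. The spread behind every p-value is therefore that of libraries, and it may be technical.

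Collagens are built as triple helices of 3 chains. Fibrillar types such as I, III, V and XI form cables, type IV forms the sheet of basement membranes, and laminins, each a trimer of an alpha, a beta and a gamma chain, form the second sheet, which nidogens tie to collagen IV. Integrins are pairs of an alpha and a beta chain in the cell membrane: alpha 1, 2 and 11 bind collagens, alpha 3, 6 and 7 bind laminins, alpha 5, 8 and V bind the RGD motif of fibronectin and related proteins, and the beta 2 family serves leukocytes, microglia included. In the brain, astrocyte endfeet rest on a laminin-rich basement membrane at vessels and at the pial surface, and astrocytes make tenascin-C and fibronectin in development and after injury.

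Total counts were 9368967 to 12498047 per library. The table holds part of the genes of a rat, chosen by a rule not given in the sources used here, and the shares over all genes given below refer to this set. Levels are CPM (a gene's count scaled to a common TMM-adjusted library total), or FPKM, which is also per length, where genes are compared with each other. Changes are log2 fold changes ± SE from edgeR's quasi-likelihood test on all 9491 genes with enough counts, and a gene was called higher or lower where its Benjamini-Hochberg adjusted p was below 0.05. The astrocyte label was met by Gfap, at 933.7 to 3295 CPM, and Aqp4, at 651.3 to 2131 CPM, over the 12 libraries, although Gfap was lower at 6 h than in the controls (-0.85 ± 0.27, edgeR adjusted p = 0.0353). Markers of microglia were present too, 17 of 17 in the table, with a summed level of 2793, 2885 and 3403 CPM in the controls.

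In each treated group 1 library stood apart from the other pair: replicate 3 at 1.5 h, replicate 3 at 3 h and replicate 1 at 6 h. Correlations of log2 CPM across genes between libraries of a group went as low as 0.985 in the controls, 0.897 at 1.5 h, 0.941 at 3 h and 0.944 at 6 h. The controls were not uniform either. Replicates 1 and 2 correlated at 0.9923, and replicate 3 correlated with them at 0.9856 and 0.9849. Control replicate 3 was kept in the fits without the libraries that stand apart. The 17 microglia markers summed to 304.6 and 298.2 CPM in replicates 1 and 2 at 1.5 h, and to 3621 CPM in replicate 3. They summed to 2701, 2706 and 3157 CPM at 3 h and to 3037, 2457 and 2420 CPM at 6 h. The 10 genes of a mitosis list, none of them members, summed to 75.9, 68.85 and 780.6 CPM at 3 h and to 745.2, 52.82 and 58.86 CPM at 6 h, against 1344, 1407 and 1034 CPM in the controls. The part of these differences in the results below was not tested, and counts are given with and without the 3 libraries. The 3 were picked because these same data set them apart. Fits without them, p-values included, therefore describe the remaining libraries and are not independent support for a change.

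The summed CPM of the matrix lines was above the controls in replicates 1 and 2 at 1.5 h, in all 3 libraries at 3 h and in replicates 2 and 3 at 6 h. The 47 matrix lines summed to 10110, 12760 and 10590 CPM in the controls, to 23810, 24420 and 10830 CPM at 1.5 h, to 22950, 22470 and 13230 CPM at 3 h and to 11850, 18720 and 17890 CPM at 6 h. Replicates 1 and 2 at 1.5 h and at 3 h thus lay far above every control, while replicate 3 at 1.5 h and replicate 1 at 6 h lay within the control range. Replicate 3 at 3 h was within that range on other scales. Its matrix share of all counts was 1.342%, against 1.132% to 1.43% in the controls, and its summed FPKM 1416, against 1183 to 1490. The other libraries named as above the controls were above them on both of these scales too. Such a sum is carried by its most abundant members: Fn1 alone had 10170, 9923 and 3966 CPM at 3 h, against 3363, 4428 and 3218 CPM in the controls. The 19 receptor chains summed to 3863, 4175 and 4178 CPM in the controls, to 4389, 4548 and 4252 CPM at 1.5 h, to 5757, 5561 and 4575 CPM at 3 h and to 4326, 5064 and 4835 CPM at 6 h. On this scale every treated library lay above every control. As a share of all counts the groups overlapped, at 0.442% to 0.485% in the treated libraries and 0.433% to 0.468% in the controls, and so did the summed FPKM, at 657.3 to 729.3 against 654.8 to 712.

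**Figure D1:**
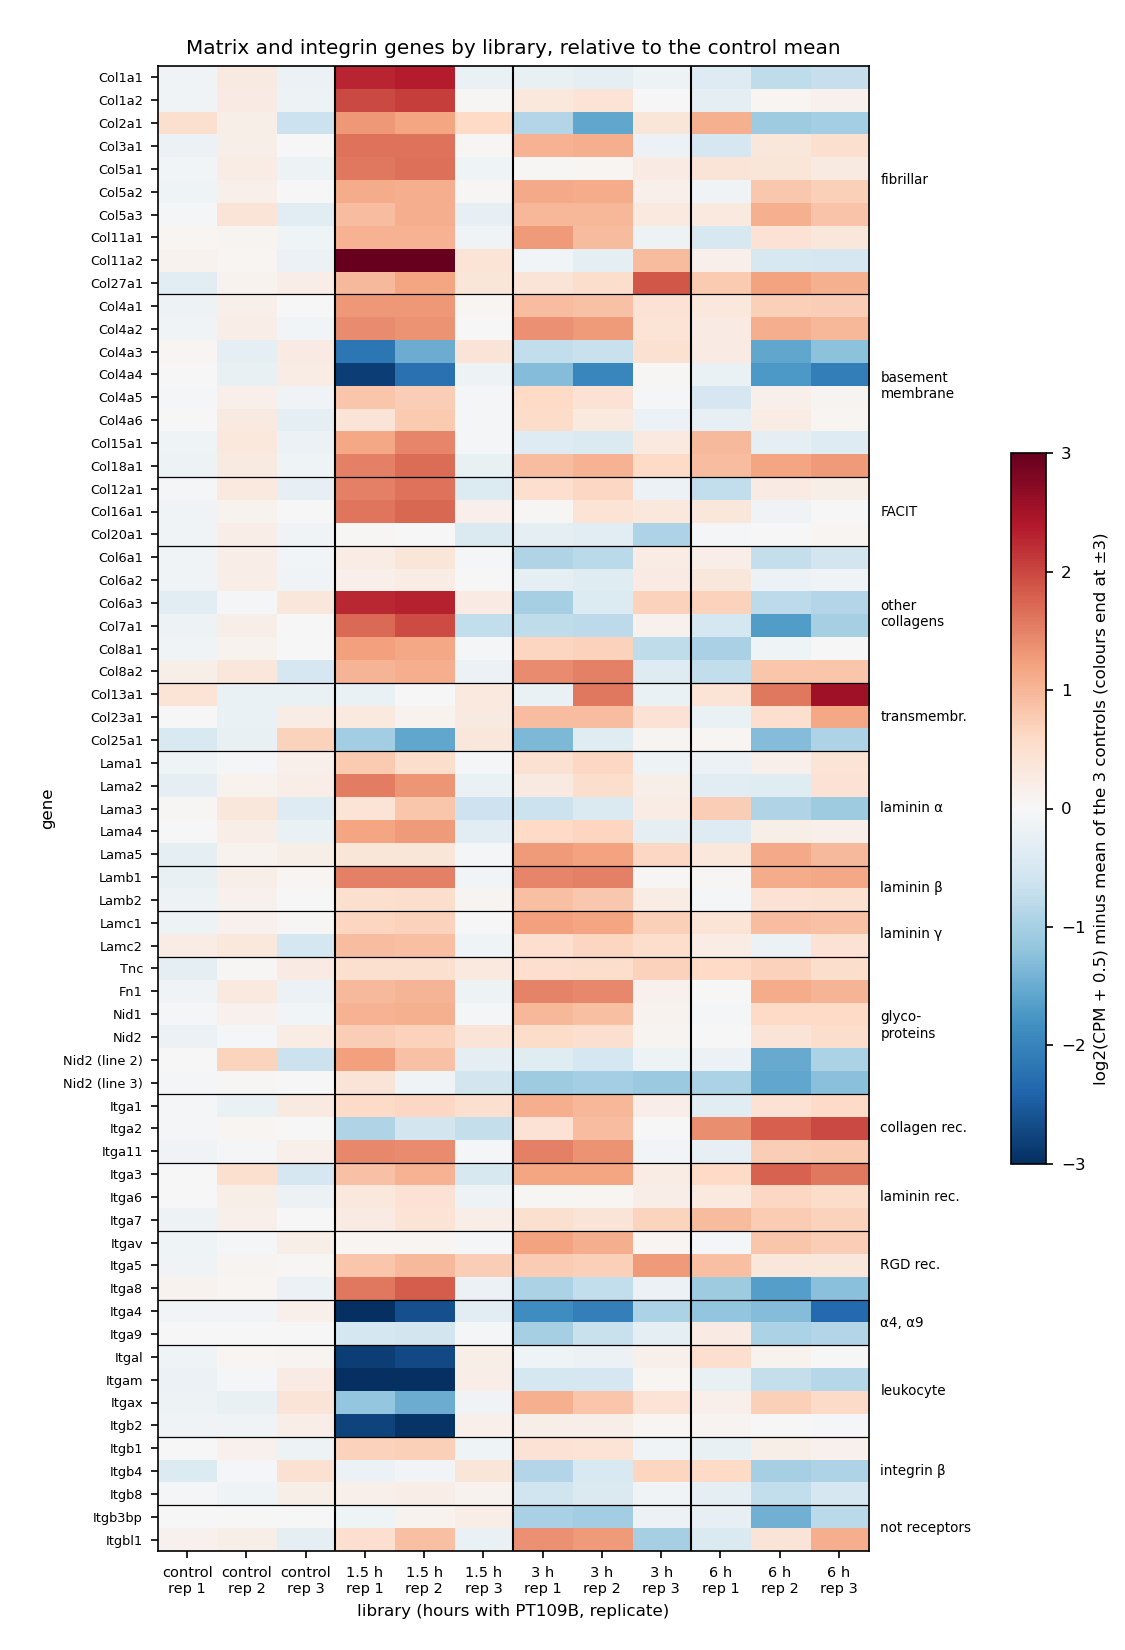
Heat map of the 65 tested lines (rows, in the order of the role lists) in the 12 libraries (columns, control then 1.5, 3 and 6 h, replicates 1 to 3), coloured by log2(CPM + 0.5) minus the mean of the 3 controls. Replicates 1 and 2 at 1.5 h are red over nearly all collagens and laminins and blue over the leukocyte integrins, and replicate 3 at 1.5 h is pale.

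After 1.5 h, 2 of 65 members were called higher, the fibrillar collagen chain Col11a2 and the fibronectin receptor chain Itga5, and 0 lower. Over all genes tested 1.95% were called higher and 1.37% lower (3.32% in either direction), so the members' count was near the background. With depth scaling 0 members were called. Of the members, 26 had an unadjusted p under 0.05, and DESeq2 called 13 higher and 0 lower. Log2 fold changes were above 0 for 40 of 45 matrix lines and 11 of 18 receptor chains, with a median of 0.72 for the matrix, 0.08 for the receptors and -0.01 over all genes. Groups did not overlap for 9 members above control and 3 below it, against 13.0% and 15.1% of all genes. Without the 3 libraries that stand apart, 47 of 67 members tested were called higher and 10 lower, against 28.7% and 30.5% of all genes. Those 47 included 10 of 10 fibrillar collagens and 9 of 9 laminin chains, and the 10 lower ones included 4 of 4 leukocyte integrins. Both of the calls with all libraries were lost without any 1 of the 3 controls or without replicate 1 or 2 at 1.5 h, whereas leaving out replicate 3 gave 35 calls. Same-numbered control and 1.5 h libraries deviated together, but so did some differently numbered ones. Deviations from the group means of replicate 1 at 1.5 h correlated at 0.296 with control replicate 2 and at 0.2 with control replicate 1. With the replicate number as a block 0 members were called.

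After 3 h, 6 of 65 members were called higher, against 13.5% of all genes, and 1 lower, against 7.94% (21.4% in either direction). The higher ones were the laminin chains Lama5, Lamb2 and Lamc1, the glycoprotein Tnc, the laminin receptor chain Itga7 and Itga5, and the lower one was the third, low line of Nid2. The median log2 fold change was 0.35 for the matrix, 0.20 for the receptors and -0.03 over all genes, and 14 members lay above every control and 5 below, against 23.4% and 24.3% of all genes. Scaling by relative sequencing depth, which count and FPKM together reveal, put the median of all genes at -0.31, the matrix at 0.05 and the receptors at -0.09, and called 2 members higher and 3 lower. Without the 3 libraries that stand apart, 32 of 67 members were called higher and 20 lower, against 31.4% and 39.6% of all genes. The 7 calls became 1, 4 and 4 without control replicates 1, 2 and 3, and 2, 3 and 19 without replicates 1, 2 and 3 at 3 h.

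After 6 h, 8 of 65 members were called higher, against 18.7% of all genes, and 3 lower, against 11.8% (30.5% in either direction). All 3 laminin-binding integrin alpha chains (Itga3, Itga6 and Itga7) were among those higher, with the collagen receptor chain Itga2, Lama5, Lamc1, Tnc and the basement membrane collagen Col18a1. The RGD-binding chain Itga8, the beta chain Itgb8 and the third Nid2 line were lower. The median log2 fold change was 0.14 for the matrix, 0.24 for the receptors and -0.02 over all genes, and with the depth scaling -0.07, 0.04 and -0.22, with 3 members called higher and 3 lower. There were 14 members above every control and 8 below, against 28.2% and 27.5% of all genes. Without the 3 libraries that stand apart, 30 members were called higher and 21 lower, against 33.3% and 41.8% of all genes. The 11 calls became 2, 3 and 5 without control replicates 1, 2 and 3, and 15, 3 and 2 without replicates 1, 2 and 3 at 6 h. Itga2 and Itga7 kept their 6 h call in all 15 alternatives computed for them.

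**Figure D2:**
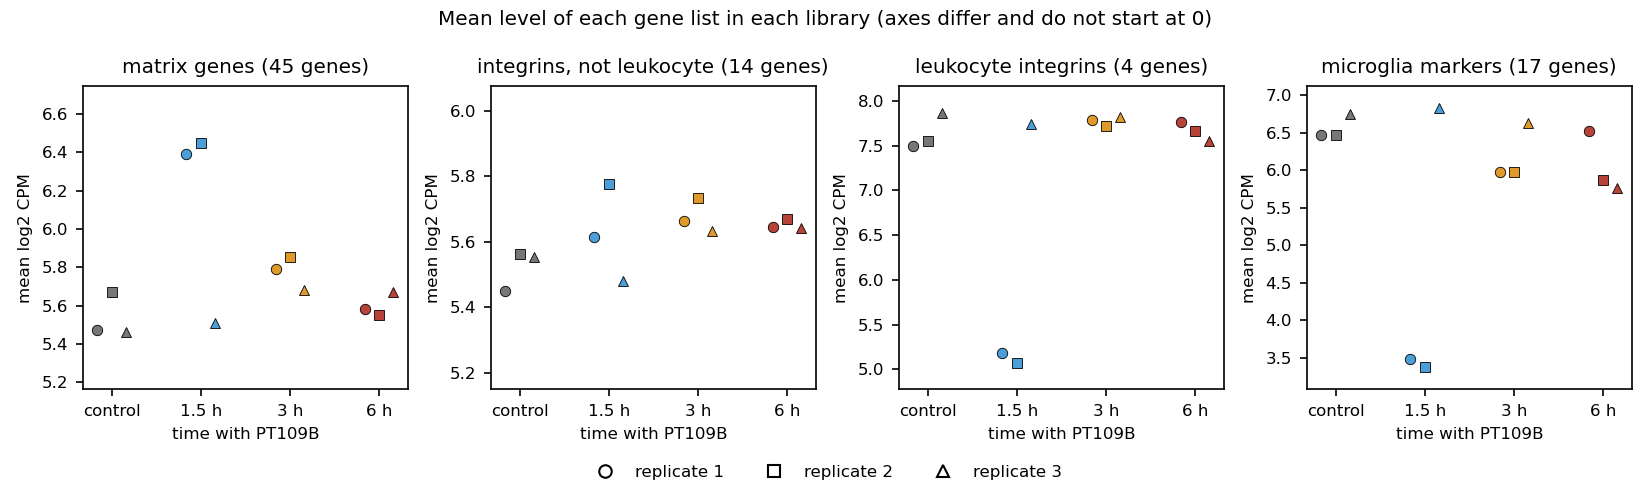
Mean log2 CPM in each library (points, symbol by replicate) of the 45 tested matrix lines, 14 receptor chains without the leukocyte integrins, the 4 leukocyte integrins and 17 microglia markers, by time with PT109B. The pair of 1.5 h libraries that is highest for the matrix is lowest for leukocyte integrins and microglia markers, and replicate 3 lies within or close to the range of the controls in each panel.

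Between times, 3 members were called higher at 3 h than at 1.5 h (Lama5, Itga2 and the leukocyte chain Itgax), against 12.1% of all genes. Lower at 3 h were 7 members, against 8.23% of all genes (20.3% in either direction): the fibrillar collagens Col1a1, Col1a2, Col5a1 and Col11a2, the fibril-associated collagen Col16a1, Itga8 and Itgb8. With depth scaling 2 were higher and 9 lower, with the replicate block 2 and 2, and without the 3 libraries that stand apart 15 and 32, against 35.2% and 34.7% of all genes. Leaving out replicate 1 or 2 at either time left 0 calls, and leaving out replicate 3 left 24 at 1.5 h and 19 at 3 h. Between 6 h and 3 h edgeR called 0 members, with 4 at an unadjusted p under 0.05, against 2.33% of all genes higher and 1.72% lower (4.05% in either direction). DESeq2, depth scaling and each limma fit called 1; for DESeq2 it was Itga2, higher at 6 h. Without the 3 libraries, 3 members were higher and 21 lower at 6 h, against 15.4% and 18.7% of all genes.

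Fibrillar collagens stood out in the pair of 1.5 h libraries. Col1a1, the main chain of type I collagen, had 2610, 2737 and 465.1 CPM at 1.5 h, against 496, 645.3 and 469.6 CPM in the controls. Its level was 454.6, 437.6 and 476.7 CPM at 3 h and 405.7, 314.3 and 328.5 CPM at 6 h. Replicates 1 and 2 at 1.5 h were thus several times above every other library, while replicate 3 was below all controls, and the 6 h libraries were below all controls as well. The log2 fold changes against control, 1.85 ± 0.49 (edgeR adjusted p = 0.0724) at 1.5 h and -0.62 ± 0.48 (adjusted p = 0.338) at 6 h, did not pass the test, and the difference of 3 h from 1.5 h did (-2.09 ± 0.50, adjusted p = 0.0205). Its partner chain Col1a2 had 1348, 1447 and 352.8 CPM at 1.5 h against 321, 404.4 and 310.1 CPM in the controls. It had a log2 difference of -1.36 ± 0.41 (edgeR adjusted p = 0.0406) at 3 h from 1.5 h.

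Col11a2, a chain of type XI collagen, which sits in the core of thin fibrils, had the largest log2 fold change of the members called at 1.5 h. It had 46.08, 45.16 and 7.047 CPM at 1.5 h against 5.65, 5.499 and 4.577 CPM in the controls. All 3 treated libraries were above all controls, but replicate 3 only slightly. The log2 fold change was 2.64 ± 0.62 (edgeR adjusted p = 0.0457) with all libraries, 3.11 ± 0.15 (adjusted p = 8.6e-11) without those that stand apart, and 2.56 ± 0.67 (adjusted p = 0.0958) with the replicate block. At 3 h the gene was at 4.916, 4.179 and 10.63 CPM and at 6 h at 5.907, 3.592 and 3.543 CPM, which overlapped the controls. Over the 10 fibrillar collagens tested, 10 had a fold change above 0 at 1.5 h, 8 at 3 h and 6 at 6 h, with medians of 1.25, 0.54 and 0.16.

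Ratios between chains of the same collagen trimer, and between the alternative laminin beta chains, differed between libraries. The FPKM of Col1a1 was 1.24, 1.28 and 1.22 times that of Col1a2 in the controls, 1.56, 1.52 and 1.06 times at 1.5 h, 0.852, 0.779 and 1.11 times at 3 h and 1.14, 0.713 and 0.708 times at 6 h. All 6 libraries of 3 and 6 h lay below the lowest control, and the 1.5 h group lay on both sides of the controls. Col4a1 and Col4a2 form the common collagen IV trimer. Col4a1 over Col4a2 was 1.64, 1.65 and 1.83 in the controls, 1.59, 1.64 and 1.74 at 1.5 h, 1.26, 1.3 and 1.74 at 3 h and 1.77, 1.32 and 1.42 at 6 h. In the laminins, Lamb2 over Lamb1 was 5.52, 5.13 and 5.18 in the controls, 2.57, 2.6 and 5.84 at 1.5 h, 3.53, 3.2 and 5.96 at 3 h and 5.03, 3.27 and 3.22 at 6 h. In each group the library that stands apart had the ratio nearest to the controls, and the other pair was below every control; at 6 h all 3 libraries were.

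**Figure D3:**
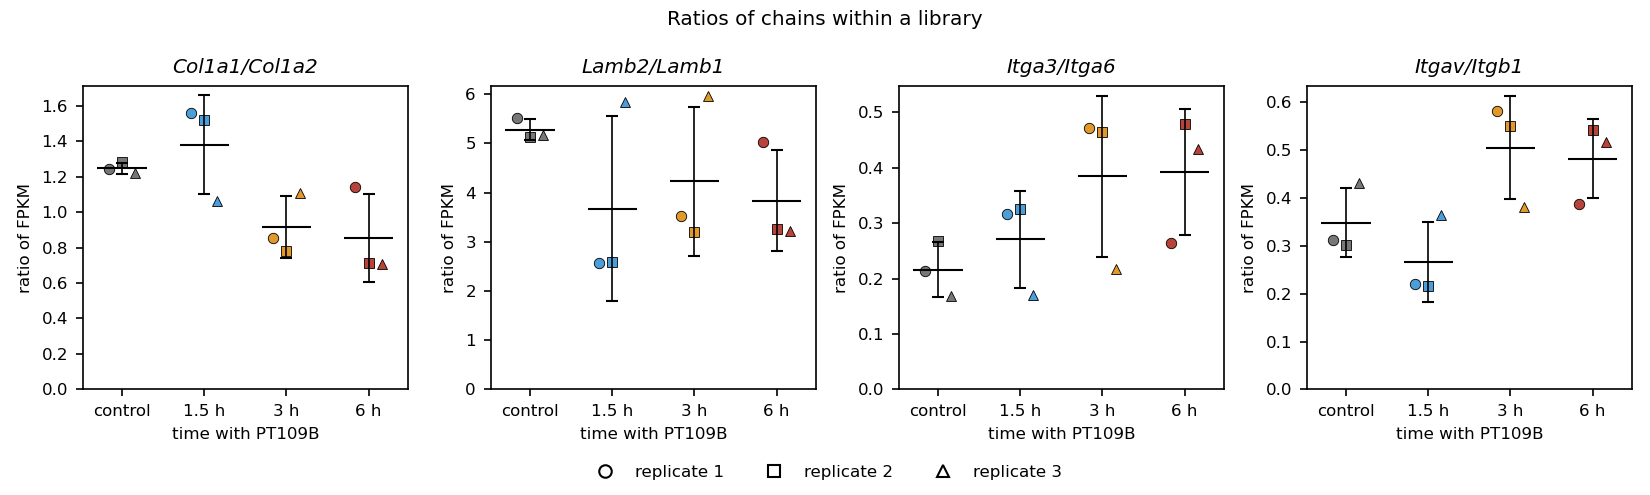
Ratios of FPKM between chains within each library (points, symbol by replicate; bars are the mean ± SD of 3 libraries) for Col1a1 over Col1a2, Lamb2 over Lamb1, Itga3 over Itga6 and Itgav over Itgb1, by time with PT109B. Col1a1 over Col1a2 lies below every control in all libraries of 3 and 6 h, and Lamb2 over Lamb1 lies below the controls in 2 libraries of 1.5 h, 2 of 3 h and all 3 of 6 h.

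Among collagens of basement membranes, Col18a1, from which endostatin is cut, was called at 6 h. It had 193.9, 230.8 and 246 CPM at 6 h against 91.08, 123.3 and 92.94 CPM in the controls, with no overlap and a log2 fold change of 1.13 ± 0.38 (edgeR adjusted p = 0.0457), or 0.92 (adjusted p = 0.0807) with the depth scaling. At 1.5 h it had 291.9, 325.5 and 87.49 CPM and at 3 h 193, 209.6 and 153.2 CPM, so replicate 3 at 1.5 h again lay below the controls. Col4a1 was the collagen of basement membranes with the highest mean FPKM. It had 441.8, 547.4 and 496.1 CPM in the controls, 1224, 1211 and 510.6 CPM at 1.5 h, 939, 911.4 and 671.1 CPM at 3 h and 610.1, 810.7 and 827 CPM at 6 h. Every library of 3 and 6 h was above every control, but the fold changes of 0.99, 0.76 and 0.60 did not pass the test. Col4a3 and Col4a4, which form the collagen IV of kidney and lung, were below the controls in the pair of 1.5 h libraries, and neither was called at any time. Col4a4 had 1.509, 2.509 and 12.38 CPM there against 13.61, 11.78 and 16.19 CPM in the controls.

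Of the other collagens, 1 was called in any comparison. Col16a1, a fibril-associated chain, had 102, 110.8 and 36.65 CPM at 1.5 h against 30.9, 35.85 and 32.56 CPM in the controls, and was lower at 3 h than at 1.5 h by a log2 difference of -1.07 ± 0.33 (edgeR adjusted p = 0.0436). Col12a1, the fibril-associated collagen of highest mean FPKM, had 538.4, 583.8 and 143.4 CPM at 1.5 h against 185.8, 231 and 159 CPM in the controls, and was not called. Col6a2, a chain of the beaded microfibrils, was not called at any time and had a mean of 280.3 ± 36.3 CPM in the controls, 303.9 ± 23.9 CPM at 1.5 h, 259.1 ± 64.2 CPM at 3 h and 286.5 ± 58.4 CPM at 6 h (SD, n = 3). The transmembrane collagen Col23a1 had 10.03, 9.898 and 6.962 CPM at 3 h against 4.965, 4.285 and 5.897 CPM in the controls. All 3 were above them, with a log2 fold change of 0.83 ± 0.34 that did not pass (edgeR adjusted p = 0.1).

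Laminins were the matrix class with most calls against control at 3 h: 3 of 9 chains were higher and 0 lower, against 13.5% and 7.94% of all genes. With depth scaling Lama5 and Lamc1 were called and Lamb2 was not. Lama5, the alpha chain of the laminins of mature vessel walls, had 719.2, 686.9 and 456.9 CPM at 3 h and 369.3, 649.6 and 583.8 CPM at 6 h, against 240.1, 318.6 and 335.1 CPM in the controls. No library of 3 or 6 h overlapped the controls, whereas those of 1.5 h, at 379.9, 382.3 and 288.4 CPM, did. Its log2 fold change was 0.23 ± 0.25 at 1.5 h (edgeR adjusted p = 0.6), 1.06 ± 0.25 at 3 h (adjusted p = 0.0153) and 0.84 ± 0.25 at 6 h (adjusted p = 0.0267), and 3 h was above 1.5 h by 0.83 ± 0.25 (adjusted p = 0.0406). Lamc1, the gamma chain shared by most laminins, had 1896, 1845 and 1316 CPM at 3 h and 1078, 1520 and 1470 CPM at 6 h, against 721.3, 880 and 823.8 CPM in the controls. Groups did not overlap at either time, with log2 fold changes of 1.06 ± 0.23 (edgeR adjusted p = 0.0101) and 0.75 ± 0.23 (adjusted p = 0.031). The 3 h call was lost in 1 of 15 alternatives, without control replicate 1. The 6 h call was lost in 6 of 15: with depth scaling, without any 1 of the 3 controls and without replicate 2 or 3 at 6 h. For Lama5 the 3 h call was lost in 3 of 15 and the 6 h call in 4 of 15, all of them fits without 1 library, control replicate 1 among them at both times.

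Lamb2, the beta chain that pairs with them in laminin of vessels and synapses, had 551.6, 519.1 and 342.5 CPM at 3 h against 263.9, 323.6 and 299.3 CPM in the controls, without overlap in CPM. Its mean FPKM was 39.8 ± 4.07 in the controls and 51.3 ± 7.49 at 3 h (SD, n = 3). It was called at 3 h (0.67 ± 0.21, edgeR adjusted p = 0.0435) and not at 6 h (0.31 ± 0.21, adjusted p = 0.275), and its 3 h value under depth scaling was 0.37 (adjusted p = 0.115). The 3 h call was lost in 10 of 15 alternatives, both limma fits and the replicate block among them. The alternative beta chain Lamb1 had 165.2, 167.3 and 55.07 CPM at 1.5 h and 161.7, 167.5 and 59.73 CPM at 3 h against 49.56, 65.48 and 60.11 CPM in the controls. Replicates 1 and 2 were far above every control at both times, replicate 3 was at control level, and the gene was not called.

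Sequences just before the transcription start are shown for 5 of the called members with a log2 fold change of at least 1, chosen after their values were seen. They are the 2 laminin chains called at 3 and 6 h, a laminin receptor chain, the collagen receptor chain and the early collagen, so that genes on both sides of the matrix can be read side by side. They are the 250 bases before the annotated start, 5′ to 3′ on the gene's strand, from RefSeq on GRCr8, and all 5 genes are on the minus strand. Lama5 is at chr3:187695975-187696224, Lamc1 at chr13:68051987-68052236, Itga3 at chr10:80518902-80519151, Itga2 at chr2:48354510-48354759 and Col11a2 at chr20:4817649-4817898. Capitals mark GC boxes, the letters GGGCGG on either strand (CCGCCC as read here), overlapping copies included.
Lama5: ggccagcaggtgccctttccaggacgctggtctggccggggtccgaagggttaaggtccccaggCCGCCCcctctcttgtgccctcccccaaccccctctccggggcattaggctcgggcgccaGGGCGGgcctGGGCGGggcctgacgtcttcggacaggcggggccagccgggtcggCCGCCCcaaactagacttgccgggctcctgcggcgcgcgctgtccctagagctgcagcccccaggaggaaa
Lamc1: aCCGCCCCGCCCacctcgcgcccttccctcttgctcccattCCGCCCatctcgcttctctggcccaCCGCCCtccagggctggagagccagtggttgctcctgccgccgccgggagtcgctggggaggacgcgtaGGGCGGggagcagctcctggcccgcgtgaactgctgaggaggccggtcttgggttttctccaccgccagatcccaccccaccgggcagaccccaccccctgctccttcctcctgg
Itga3: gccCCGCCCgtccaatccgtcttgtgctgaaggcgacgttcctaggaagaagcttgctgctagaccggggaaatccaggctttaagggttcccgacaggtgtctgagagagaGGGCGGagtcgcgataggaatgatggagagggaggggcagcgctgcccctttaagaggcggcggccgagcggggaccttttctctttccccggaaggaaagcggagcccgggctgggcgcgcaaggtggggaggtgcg
Itga2: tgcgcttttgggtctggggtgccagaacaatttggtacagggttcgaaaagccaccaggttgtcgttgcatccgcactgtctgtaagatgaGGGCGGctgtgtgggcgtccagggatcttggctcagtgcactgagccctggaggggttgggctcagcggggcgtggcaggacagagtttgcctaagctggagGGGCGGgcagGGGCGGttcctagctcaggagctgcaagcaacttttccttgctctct
Col11a2: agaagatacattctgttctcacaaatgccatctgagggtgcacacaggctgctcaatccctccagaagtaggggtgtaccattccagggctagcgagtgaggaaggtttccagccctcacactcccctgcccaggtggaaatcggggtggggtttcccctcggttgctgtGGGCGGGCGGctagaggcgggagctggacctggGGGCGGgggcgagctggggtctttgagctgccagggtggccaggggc
The boxes numbered 4 in Lama5, 5 in Lamc1, 2 in Itga3, 3 in Itga2 and 3 in Col11a2, and G and C made up 60% to 72.8% of these bases. Of 66 member symbols 50 had an entry, and 34 of those, or 68%, held a GC box in this window, against 30.5% of 33469 promoters in the RefSeq set. That set is not limited to the genes of the expression table. Members entered by the first entry of each symbol, and the set was not reduced in that way. The shares are thus not of like sets, and the difference was not tested. The AP-1 letters TGANTCA, searched on both strands, were in 3 of the 50, Col6a1, Itgax and Lama3, or 6%, against 6.34% of all promoters. The cAMP response element TGACGTCA was in 0 of the 50, against 1.59%. A match is a description of letters, and binding was not measured.

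Tenascin-C, an adhesive glycoprotein of developing and injured brain, had a higher CPM in every treated library than in the controls. Tnc had 901.8, 1118 and 1287 CPM in the controls, 1524, 1521 and 1340 CPM at 1.5 h, 1552, 1577 and 1760 CPM at 3 h and 1642, 1755 and 1560 CPM at 6 h. On this scale all 9 treated libraries exceeded the highest control, those that stand apart included. Its mean FPKM was 134 ± 23.5 in the controls and 167 ± 12.1, 167 ± 25.4 and 180 ± 10.4 at 1.5, 3 and 6 h (SD, n = 3). It was called at 3 h (0.56 ± 0.16, edgeR adjusted p = 0.0312) and 6 h (0.58 ± 0.16, adjusted p = 0.0195), not at 1.5 h (0.41 ± 0.16, adjusted p = 0.185), and neither call held with depth scaling (0.29 and 0.39, adjusted p = 0.217 and 0.106). Fibronectin was the member of highest level per length. Fn1 had a mean of 342 ± 62.8 FPKM in the controls, 526 ± 205 at 1.5 h, 596 ± 219 at 3 h and 500 ± 156 at 6 h (SD, n = 3). Fn1 had 10170, 9923 and 3966 CPM at 3 h and 3608, 7823 and 7337 CPM at 6 h, against 3363, 4428 and 3218 CPM in the controls, with overlap at both times, and was not called (1.13 ± 0.44 at 3 h, edgeR adjusted p = 0.0851). Nid1 and the lead line of Nid2 were not called. The third Nid2 line, at 0.1966, 0.22 and 0.1832 CPM at 3 h and 0.2568, 0 and 0.1143 CPM at 6 h, against 0.9416, 0.9997 and 0.9681 CPM in the controls, was called lower at both, while the lead line, at 57.18 to 108.4 CPM, had log2 fold changes of 0.38 and 0.31. How counts were divided between the 3 lines is not given in the sources used here.

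The laminin-binding chains Itga3, Itga6 and Itga7 were called higher at 6 h, and with depth scaling Itga7 was the 1 of the 3 that stayed called. Itga7 had 75.08, 66.3 and 62.75 CPM at 6 h and 54.47, 50.7 and 61.65 CPM at 3 h, against 34.75, 42.92 and 39.16 CPM in the controls. In CPM each treated library was above each control, 1.5 h included. Its mean FPKM was 8.3 ± 0.881 in the controls and 9.63 ± 0.781, 9.82 ± 2.05 and 12.7 ± 2.21 at 1.5, 3 and 6 h (SD, n = 3). The log2 fold change was 0.29 ± 0.13 at 1.5 h (edgeR adjusted p = 0.224), 0.51 ± 0.13 at 3 h (adjusted p = 0.0184) and 0.80 ± 0.13 at 6 h (adjusted p = 0.00119). The 3 h call was lost in 6 of 15 alternatives: with depth scaling, with both limma fits, without control replicate 1 or 3 and without replicate 1 at 3 h. Itga3 had 66.86, 152.8 and 132.8 CPM at 6 h against 44.51, 62.48 and 31.24 CPM in the controls. Replicate 1 at 6 h was just above the highest control and the other pair at more than 2 times its level, with a log2 fold change of 1.35 ± 0.45 (edgeR adjusted p = 0.0458), or 1.54 ± 0.23 (adjusted p = 0.000606) without the libraries that stand apart. The call was lost in 8 of 15 alternatives: with depth scaling (1.12 ± 0.42, adjusted p = 0.063), with both limma fits, without any 1 of the 3 controls and without replicate 2 or 3 at 6 h. Itga6 had 310.5, 390.9 and 374.9 CPM at 6 h against 255.3, 286.4 and 227.6 CPM in the controls and passed narrowly (0.48 ± 0.17, edgeR adjusted p = 0.048). That call was lost in 11 of 15 alternatives, other scalings of the counts among them. Per length, Itga3 was at 0.264, 0.479 and 0.434 times Itga6 at 6 h against 0.214, 0.267 and 0.168 times in the controls.

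The collagen receptor chain Itga2, scarce in every library, had the largest fold change of any receptor chain called. It had 2.911, 4.002 and 4.686 CPM at 6 h against 0.7704, 0.8569 and 0.7921 CPM in the controls, a log2 fold change of 2.24 ± 0.43 (edgeR adjusted p = 0.00361). At 1.5 h it had 0.2012, 0.3921 and 0.302 CPM, all below the controls, and at 3 h 1.278, 1.98 and 0.8245 CPM, which overlapped them. The value at 1.5 h was not called (-1.38 ± 0.50, edgeR adjusted p = 0.156), and 3 h was higher than 1.5 h by 2.12 ± 0.49 (adjusted p = 0.0183). Itga1 and Itga11, the other collagen-binding chains, had fold changes of 0.82 and 1.23 at 3 h and were not called at any time. Itga1, the collagen-binding chain of highest mean FPKM, had 28.31, 26.29 and 15.12 CPM at 3 h against 12.41, 11.28 and 15.75 CPM in the controls.

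**Figure D4:**
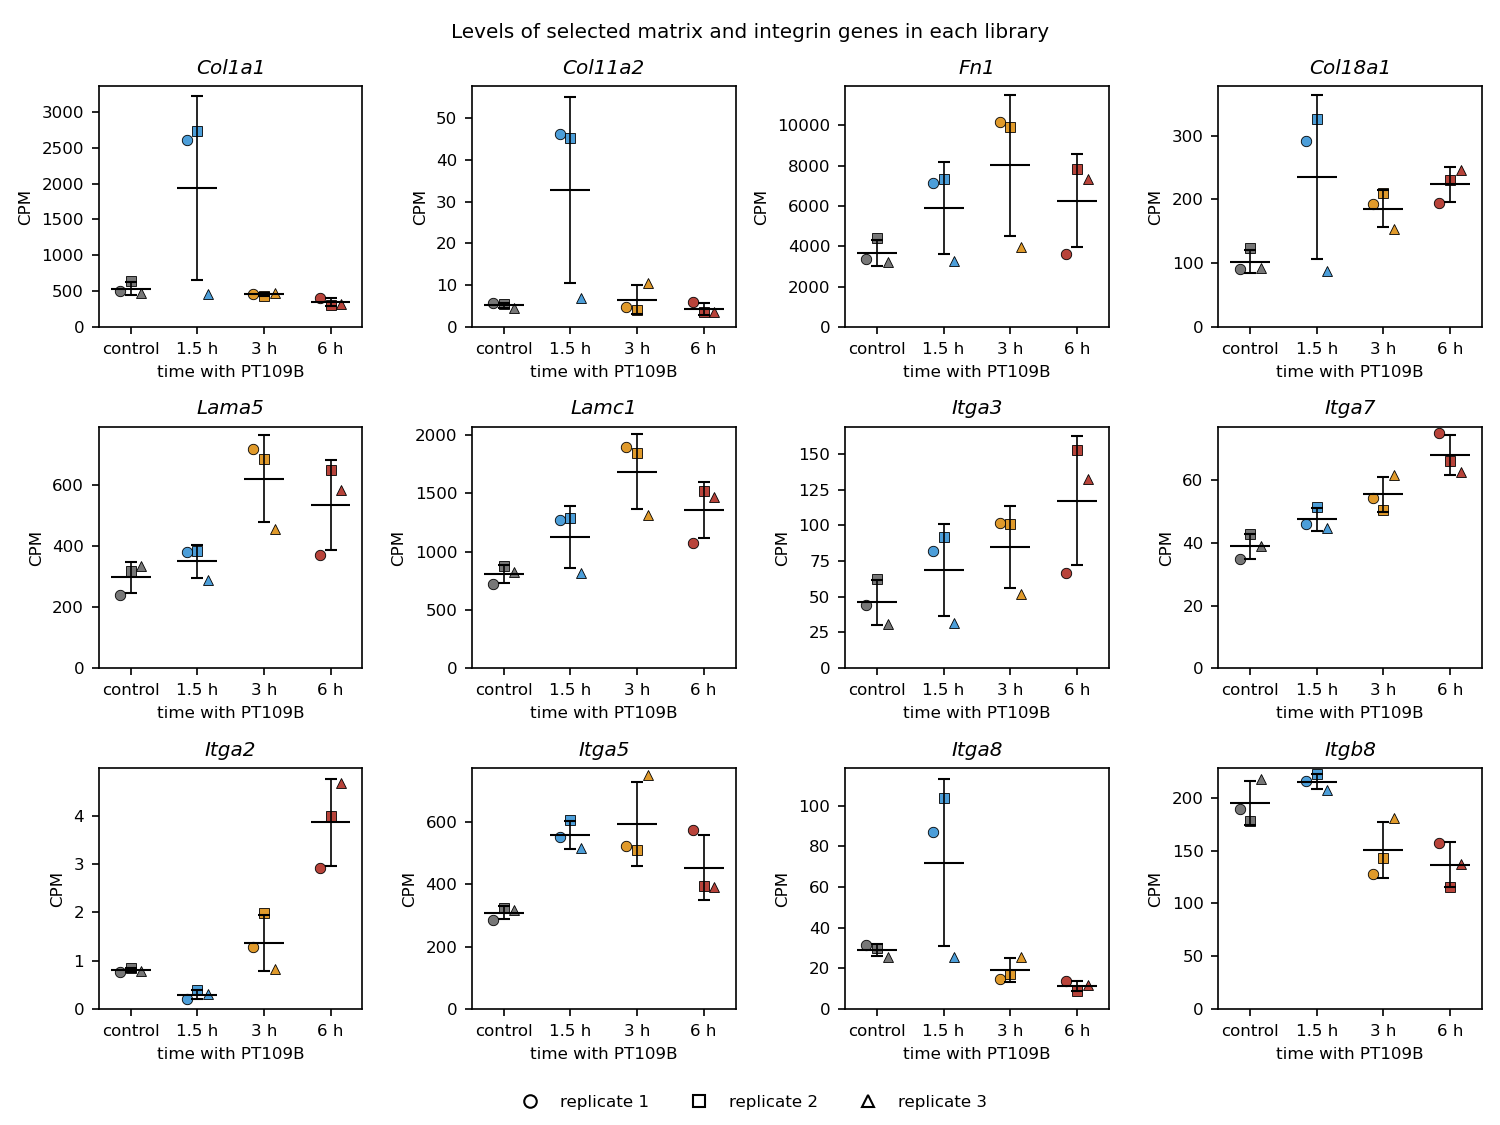
CPM of 12 members in each library (points, symbol by replicate) with the mean ± SD of 3 libraries, by time with PT109B, each panel on its own linear axis from 0. Itga5 and Itga7 lie above all controls in all 9 treated libraries, Itga2 is highest in the 3 libraries of 6 h, and Col1a1 and Col11a2 are high in 2 libraries of 1.5 h only.

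Itga5, the fibronectin receptor chain, was called at the earliest time. It had 286.6, 325.6 and 317.6 CPM in the controls, 553.7, 605.6 and 515.6 CPM at 1.5 h, 522.4, 509.3 and 750.7 CPM at 3 h and 576.3, 394.5 and 392.6 CPM at 6 h. Every treated library was above every control, and the libraries that stand apart at 3 h and 6 h were the highest of their groups. The log2 fold change was 0.85 ± 0.19 at 1.5 h (edgeR adjusted p = 0.0421), 0.94 ± 0.19 at 3 h (adjusted p = 0.00834) and 0.55 ± 0.19 at 6 h (adjusted p = 0.0519). The call at 1.5 h was lost with the replicate block (0.85 ± 0.21, adjusted p = 0.0865), and that at 3 h with the depth scaling (0.68 ± 0.25, adjusted p = 0.0685).

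Itga8 and Itgb8 were called lower at 6 h than in the controls. The call was lost in 7 of 15 alternatives for Itga8, the fits without any 1 control among them, and in 4 of 15 for Itgb8. Itga8, whose ligand in kidney and other tissues of the mouse is nephronectin, had 13.61, 8.826 and 11.89 CPM at 6 h against 31.41, 30.06 and 25.7 CPM in the controls, without overlap (-1.34 ± 0.43, edgeR adjusted p = 0.0378). At 1.5 h it had 87.03, 103.6 and 25.37 CPM, so the pair of libraries was above the controls and replicate 3 below them, and 3 h was lower than 1.5 h by -1.91 ± 0.43 (adjusted p = 0.0171). Itgb8, which with alpha V activates latent TGF-beta and is made by astrocytes, had 157.4, 115.3 and 137.7 CPM at 6 h against 188.9, 177.6 and 218.1 CPM in the controls. All 3 libraries were below all controls (-0.51 ± 0.15, edgeR adjusted p = 0.0302), and 3 h, at 128.1, 143.3 and 180.4 CPM, was lower than 1.5 h, at 215.9, 222.5 and 207.6 CPM (-0.52 ± 0.15, adjusted p = 0.0406). Its partner Itgav had 1943, 1795 and 873.2 CPM at 3 h against 773.6, 816 and 953.7 CPM in the controls and was not called (0.86 ± 0.30, edgeR adjusted p = 0.0619). Itgb1, the beta chain of most of these receptors, was the receptor chain of highest level per length and was not called. Its mean was 257 ± 26.9 FPKM in the controls, 340 ± 102 at 1.5 h, 250 ± 25.6 at 3 h and 230 ± 16.2 at 6 h (SD, n = 3).

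**Figure D5:**
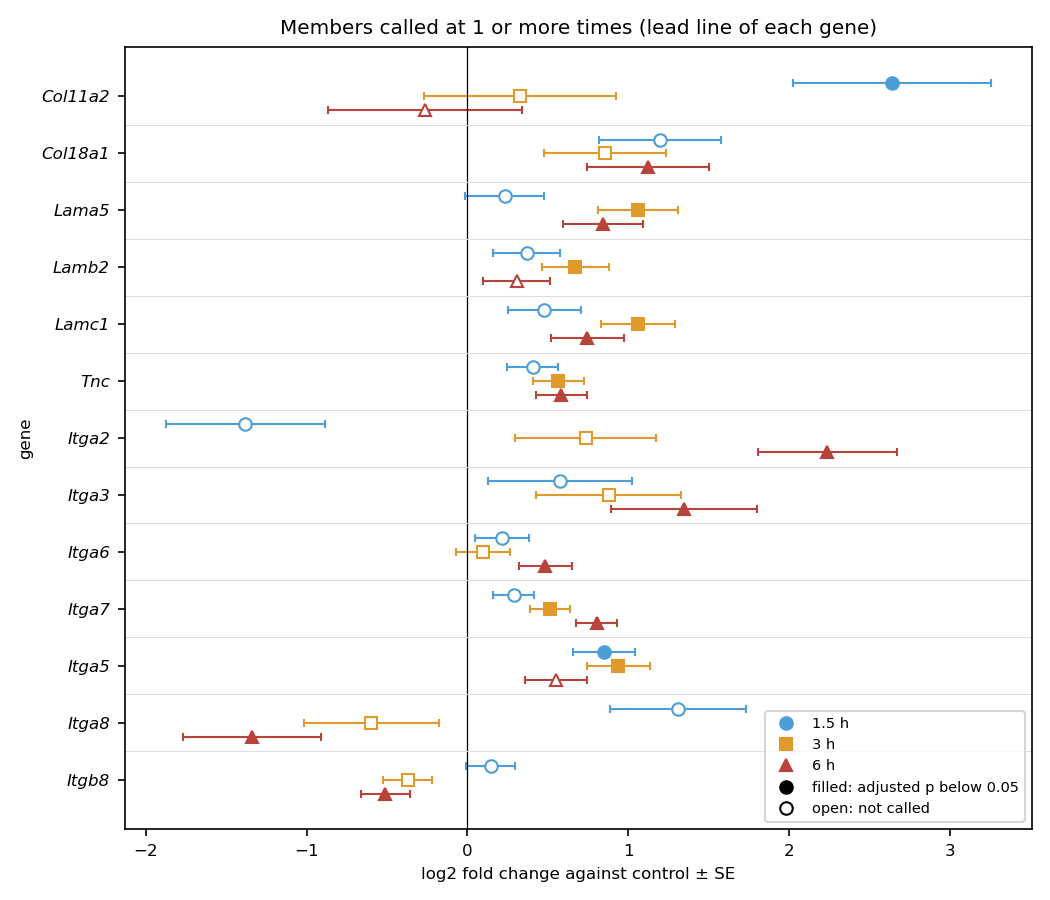
Log2 fold change against control ± SE (edgeR) at 1.5, 3 and 6 h of the 13 members called at 1 or more of these times, on the lead table line of each gene, with filled symbols where the adjusted p was below 0.05. Lama5, Lamc1 and Tnc are filled at 3 and 6 h, Itga7 at both too, and Itga8 changes side between 1.5 h and 6 h.

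At 1.5 h the leukocyte integrins were low in the same libraries as the microglia markers. Itgb2, the shared beta chain, had 45.88, 40.38 and 352 CPM at 1.5 h against 294.5, 292.7 and 363.9 CPM in the controls. Itgam, the alpha chain that marks microglia, had 37.13, 36.3 and 350 CPM at 1.5 h against 267.1, 292.3 and 360.4 CPM in the controls. Both were far lower in replicates 1 and 2 and at control level in replicate 3, as were the 17 microglia markers, and in bulk RNA fewer cells of a type and less RNA per cell cannot be told apart. With all libraries neither was called (-1.12 ± 0.66 and -1.12 ± 0.73, edgeR adjusted p = 0.348 and 0.386), and without those that stand apart both were (-2.88 ± 0.11 and -3.07 ± 0.12, adjusted p = 1.17e-11 and 9.72e-11). The library left out at 1.5 h was the one at control level, so the second fit describes the other pair. Itgam over Itgb2 in FPKM was 0.7, 0.77 and 0.764 in the controls, 0.624, 0.694 and 0.767 at 1.5 h, 0.458, 0.468 and 0.743 at 3 h and 0.603, 0.448 and 0.425 at 6 h. At the later times the lists differed in CPM. The mean log2 CPM of the microglia markers was 5.98 and 5.98 in replicates 1 and 2 at 3 h and 5.87 and 5.77 in replicates 2 and 3 at 6 h, against 6.47 to 6.75 in the controls, whereas that of the leukocyte integrins was 7.78, 7.72, 7.67 and 7.56 in those libraries, against 7.49 to 7.86. Median log2 fold changes were -0.33 for the microglia markers and 0.04 for the leukocyte integrins at 3 h, and -0.36 and 0.11 at 6 h. By summed FPKM, however, both lists were below every control in the libraries just named. The leukocyte integrins were at 149.6 to 156.5 FPKM there, against 183.5 to 227.8 in the controls. The microglia markers were at 1117 to 1142 FPKM, against 1556 to 1835. Itgax, the chain of the CD11c integrin, was the 1 leukocyte chain called in any comparison, with 94.48, 80.4 and 60.1 CPM at 3 h against 19.72, 15.68 and 41.58 CPM at 1.5 h (1.61 ± 0.35, adjusted p = 0.0143) and 40.23, 38.2 and 58.53 CPM in the controls. Itga4, which leukocytes and some other cells use, had 0.9056, 1.568 and 9.766 CPM at 1.5 h against 11.73, 11.78 and 13.91 CPM in the controls and was not called. Itga9, which binds tenascin-C among others, was not called either, at 25.46, 25.01 and 35.64 CPM at 1.5 h against 37.41, 36.92 and 36.26 CPM in the controls.

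Set library by library against the controls, the matrix had its highest counts at 1.5 h. Replicates 1 and 2 at 1.5 h had 39 and 38 of 45 matrix lines above the highest control and replicate 3 had 8, while all genes gave 40.6%, 40.5% and 30%. Below the lowest control were 3, 4 and 8 matrix lines, against 41.8%, 40.9% and 33.5% of all genes. Of the 14 receptor chains without the leukocyte ones, 8, 9 and 3 were above the highest control in the same libraries. At 3 h the counts above were 27, 29 and 18 of 45 for the matrix and 8, 8 and 4 of 14 for the receptors, against 41.1%, 40.8% and 35.9% of all genes. The counts below were 13, 13 and 6 for the matrix and 5, 5 and 2 for the receptors, against 45.8%, 45.9% and 36% of all genes. At 6 h the counts above were 16, 21 and 23 for the matrix (35.6%, 46.7% and 51.1%) and 7, 9 and 8 for the receptors (50%, 64.3% and 57.1%), against 39.4%, 42.3% and 42.5% of all genes. Below at 6 h were 14, 17 and 13 matrix lines and 6, 5 and 5 receptor chains, against 38%, 45.9% and 45.6% of all genes. Without the leukocyte chains, the receptor share above the controls thus exceeded the matrix share in each library of 6 h. With all 18 tested receptor chains it was 44.4%, 61.1% and 50%, which exceeded the matrix share in replicates 1 and 2 and not in replicate 3. Without the 3 libraries that stand apart the matrix median at 6 h was 0.04, with 20 lines called higher and 14 lower of 47. Markers of fibroblasts and meningeal cells, other makers of collagen, summed to 248.4, 247.5 and 345.1 CPM in the controls, to 335.2, 344 and 309.8 CPM at 1.5 h, to 742.2, 824.3 and 400.5 CPM at 3 h and to 394.6, 684.8 and 779.6 CPM at 6 h. Mural cell markers summed to 1496, 1527 and 758.2 CPM in the controls, to 3085, 3347 and 924.3 CPM at 1.5 h, to 1142, 1093 and 871.4 CPM at 3 h and to 752.1, 909.2 and 921.5 CPM at 6 h. The mural sum was thus highest in the pair of 1.5 h libraries in which the collagens were highest. Neuron markers summed to 467.5, 453.1 and 207.2 CPM at 1.5 h, against 247.3, 232.9 and 193.4 CPM in the controls. Oligodendrocyte markers had a mean log2 CPM of 5.58, 5.65 and 4.31 at 1.5 h, against 4.21 to 4.66 in the controls, while their sums of 834.3, 877.1 and 783 CPM were near the 824.9 to 847.4 CPM of the controls. The fibroblast and meningeal markers, too, had a mean log2 CPM of 4.50, 4.51 and 3.63 at 1.5 h, against 3.58 to 3.82 in the controls. The part of these markers in the level of the collagens was not tested.

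Genes that work with the members were read from whole lists of known roles. Over all genes 1.95%, 13.5% and 18.7% were called higher and 1.37%, 7.94% and 11.8% lower at 1.5, 3 and 6 h. Of 16 tested genes of collagen processing, 0 were called at 1.5 h, 1 was higher at 3 h (Bmp1, the procollagen C-proteinase, 0.79 ± 0.23) and 2 were higher at 6 h (P4ha2, a prolyl hydroxylase, 0.50 ± 0.13, and Adamts14, a procollagen N-proteinase, 0.83 ± 0.26), with 0 lower at any time. Of 19 other matrix genes and integrin ligands, 1 was called against control: Ccn1, a matricellular ligand of several integrins, was at 576.6, 606.5 and 210.2 CPM at 1.5 h against 102.9, 111.6 and 74.98 CPM in the controls (2.27 ± 0.42, edgeR adjusted p = 0.0154). Of 21 genes of focal adhesions, 1 was higher at 1.5 h, 2 at 3 h and 4 at 6 h, shares near those over all genes, and 1, the adaptor Tns3, was lower at 3 and 6 h (-0.74 ± 0.15 and -0.60 ± 0.15). Zyx, the focal adhesion protein zyxin, was higher at each time (0.78 ± 0.15, 1.20 ± 0.16 and 0.83 ± 0.15), with Bcar1 at 3 and 6 h (0.90 ± 0.22 and 0.64 ± 0.22) and the kinase Src and the actin regulator Vasp at 6 h (0.55 ± 0.11 and 0.74 ± 0.15). The adjusted p of each of these calls is from the same edgeR fit.

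Of 9 matrix receptors that are not integrins, 1 was higher at 1.5 h and 3 at 3 h and at 6 h, with 0 lower at any time, against 1.95%, 13.5% and 18.7% of all genes higher. Sdc4, a heparan sulfate syndecan that joins alpha 5 beta 1 in focal adhesions, had 149.8, 144.7 and 139.1 CPM in the controls, 308.5, 320.8 and 299.5 CPM at 1.5 h, 405.3, 436.2 and 386.4 CPM at 3 h and 267.3, 343.8 and 333 CPM at 6 h. All 9 treated libraries, with those that stand apart, were well above the controls, with log2 fold changes of 1.10 ± 0.12, 1.50 ± 0.12 and 1.12 ± 0.12 (edgeR adjusted p = 0.000587, 3.65e-05 and 0.000179). Cd44, the hyaluronan receptor, had 1688, 1670 and 1587 CPM at 3 h and 1874, 2095 and 1953 CPM at 6 h, against 1026, 1039 and 1093 CPM in the controls (0.65 ± 0.12 and 0.91 ± 0.12, edgeR adjusted p = 0.0055 and 0.000582). Sdc1 was higher at 3 and 6 h as well (1.04 ± 0.15 and 1.28 ± 0.15, adjusted p = 0.00126 and 0.000323).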

How the data were processed

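RNA-seq values of 12 libraries in 4 groups of 3 were used. Each gene has an estimated count in every library, as deposited by the authors. Each also has an FPKM, as deposited by the authors. The submitters' processing notes list StringTie 2.2.1; aligner, build and annotation: not given in the sources used here. Not whole were 9.49% of counts, which were rounded before testing. In R 4.3.3, filterByExpr kept 9491 of 9721 lines, and edgeR 4.0.16 (TMM scaling, robust quasi-likelihood, group as the only term, all 12 libraries) gave Benjamini-Hochberg adjusted p-values over all of them, called below 0.05; CPM use TMM-scaled totals. Members were counted from that fit. By rule, values in every library are given for members called against control with a log2 fold change of at least 1 in size and a group mean CPM of 2 or more, for the member of highest FPKM per role list, and, outside the rule for members, for up to 3 called genes per list. Other members with such values were added after their values were seen. Gene lists follow known roles; members and lists were chosen with earlier results of these data known. Alternatives were RLE scaling, scaling by depth from the ratio of count to FPKM (4756 genes, minimum count 200, minimum FPKM 2), no filter, DESeq2 1.42.0, limma 3.58.1 on log2(FPKM + 1) and log2(FPKM + 0.1), the replicate block, fits of 2 groups, leaving out the 3 libraries that stand apart, and leaving out each replicate.

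Replicate numbers come from the labels, which do not say what they share. Deviations from the group means of same-numbered libraries correlated at 0.2 to 0.451 between 1.5 h and control and at 0.166 to 0.224 between 3 h and 1.5 h, each pair above 0.1, so the blocked count stands beside those results. In the other comparisons they ran from -0.657 to 0.599. The libraries that stand apart deviated together whatever their numbers. Replicate 3 at 1.5 h correlated at 0.224 with replicate 3 at 3 h and at 0.256 with replicate 1 at 6 h. Replicate 3 at 3 h correlated at 0.794 with replicate 1 at 6 h. The correlations therefore do not show that the numbers mark pairs, and the block rests on the numbers alone. No replicates agreed within sampling noise: the lowest chi-square per degree of freedom was 3.86. The tests were tried on simulated counts first.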

Additional observations from a re-analysis of the deposited data

Results flagged for a closer look

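There were 10 members that differed between 3 h and 1.5 h with PT109B by a direct test of the difference (edgeR's quasi-likelihood test, Benjamini-Hochberg adjusted over 9491 genes), which is what brings them here; both times share the same control libraries. Lower at 3 h than at 1.5 h were Col11a2 (log2 difference -2.31 ± 0.61, adjusted p = 0.0282), Col1a1 (-2.09 ± 0.50, 0.0205), Itga8 (-1.91 ± 0.43, 0.0171), Col1a2 (-1.36 ± 0.41, 0.0406), Col5a1 (-1.11 ± 0.35, 0.0472), Col16a1 (-1.07 ± 0.33, 0.0436) and Itgb8 (-0.52 ± 0.15, 0.0406). Higher at 3 h were Itga2 (2.12 ± 0.49, 0.0183), Itgax (1.61 ± 0.35, 0.0143) and Lama5 (0.83 ± 0.25, 0.0406). Same-numbered libraries of these times deviated together, but so did replicates 1 and 2 across numbers (correlations of 0.15 and 0.202). With the replicate block 2 stayed higher (Itga2 and Itgax) and 2 lower (Col1a1 and Itga8), while Col1a2, Col5a1, Col11a2, Col16a1, Lama5 and Itgb8 lost the call. For the 5 collagens and Itga8 the 1.5 h mean rests on replicates 1 and 2, since replicate 3 was at or near control level, and 0 of the 10 were called without either of that pair. Summed microglia markers were at 304.6 and 298.2 CPM in that pair and at 2701, 2706 and 3157 CPM at 3 h; their part in these differences was not tested. Groups of 3 are too small for a test of single outlying libraries.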

How the results depend on the processing

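Each of 30 results for single members was read in every alternative that held it, which gave 449 pairs of result and alternative. Of these pairs, 0 changed direction, 270 stayed past the threshold and 179 did not. Counts of called members, in the order 1.5 h, 3 h and 6 h against control, 3 h against 1.5 h and 6 h against 3 h, were 2, 7, 11, 10 and 0. RLE scaling and no filter moved none of them by over 1.5 times. Depth scaling gave 0, 5, 6, 11 and 1; DESeq2 gave 13, 13, 13, 15 and 1; limma gave 0, 7, 9, 10 and 1 with a pseudocount of 1 and 0, 6, 9, 8 and 1 with 0.1. Fits of the 2 groups alone gave 1, 10, 19, 0 and 0. Without the 3 libraries that stand apart they were 57, 52, 51, 47 and 24. Leaving out 1 library gave 0 to 35, 1 to 19, 2 to 15, 0 to 24, and 0 throughout; the cause was not tested, beyond the fewer samples in each fit. The replicate block gave 0, 4, 9, 4 and 0. Same-numbered libraries all deviated together only between 1.5 h and control and between 3 h and 1.5 h. There, some differently numbered libraries did as well. Fits with 2 libraries of a group use the spread of all groups. Depth limits scarce members: Itga2 was at 0.2012 to 4.686 CPM, and the third Nid2 line at 0 to 1.409 CPM, with a mean count of 6.33.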

Other observations

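Col13a1, a transmembrane collagen, had 0.2568, 1.232 and 2.857 CPM at 6 h against 0.2568, 0 and 0 CPM in the controls (edgeR adjusted p = 0.0825). Col27a1, a fibrillar collagen, was above every control in CPM in all 9 treated libraries and was not called: it had 8.474, 11.43 and 12.32 CPM in the controls, 21.23, 24.54 and 13.79 CPM at 1.5 h, 13.96, 15.62 and 40.22 CPM at 3 h and 18.75, 25.25 and 22.86 CPM at 6 h (adjusted p = 0.219, 0.0602 and 0.0592). In FPKM, replicates 1 and 2 at 3 h, at 1.181 and 1.355, lay within the control range of 0.942 to 1.362. Itgb3bp had 10.61, 4.31 and 6.972 CPM at 6 h against 12.75, 12.57 and 12.5 CPM in the controls (adjusted p = 0.0939), in the libraries in which mitosis genes were low as well.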
